A study of Mus musculus with 12 samples.

Results

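The data describe 9 genes of leukotriene and prostaglandin synthesis in sorted cells of the mouse intestinal crypt. They are Alox5, Alox5ap, Ltc4s, Lta4h, Ltb4r2, Ptgs1, Hpgds, Ptges and Pla2g4a, found by symbol in a table of 55414 genes and 12 RNA-seq libraries. The symbols were chosen with earlier results of these libraries known, and it is not recorded which values guided the choice. Their levels and fold changes are therefore given as a description, without p-values. Where the text counts how many of them passed a test's threshold under the main settings, the share of all genes that passed stands beside it. Under alternative settings this share is given only in part. Every such count is a description too and no evidence about the 9 genes.

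The mice were C57BL/6J, untreated and 8 to 12 weeks old. They were either wild type for the glucocorticoid receptor (WT) or GRvillinKO (GRKO here), in which the receptor gene Nr3c1 is deleted in cells that express villin, which covers the intestinal epithelium as a whole and not the Paneth cells alone. Crypt cells of the small intestine were sorted as Paneth cells or as non-Paneth cells, which gave 4 groups with 3 libraries each. Paneth cells were taken as CD24+ cKIT+ cells with medium to high side scatter and without CD31, CD45 or TER119. No gate is stated for the non-Paneth fraction, which is therefore defined by its label alone. Each library held 11126297 to 15910292 gene counts. No label names a batch, and any batch that ran along with the groups cannot be told apart from them. Nothing states whether each library came from a separate mouse, and the spread between replicates may therefore be partly technical.

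The libraries were checked against their labels. Nr3c1 lay between 4.73 and 12.1 CPM (counts relative to the library total) in GRKO Paneth cells against 33.0 to 41.1 in WT Paneth cells, and between 19.6 and 36.2 CPM against 135 to 160 in non-Paneth cells. The summed level of 8 Paneth markers was 359216 to 447040 CPM in the Paneth libraries and 442 to 1701 CPM in the non-Paneth libraries. Xist stood at 127 and 257 CPM in the WT libraries numbered 2 and at most 0.520 CPM in the other 10, so that the WT mice were not all of the same sex.

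Eicosanoids are signalling lipids made from arachidonic acid, which cytosolic phospholipase A2 (Pla2g4a) releases from membranes. In the leukotriene branch, 5-lipoxygenase (Alox5), helped by its activating protein (Alox5ap), makes leukotriene A4. Leukotriene C4 synthase (Ltc4s) then joins it to glutathione, or leukotriene A4 hydrolase (Lta4h) turns it into leukotriene B4, for which Ltb4r2 encodes the low-affinity receptor. In the prostaglandin branch, cyclooxygenase 1 (Ptgs1) feeds the prostaglandin D synthase Hpgds and the prostaglandin E synthase Ptges. In the intestinal epithelium, the rare chemosensory tuft cells are known as a source of cysteinyl leukotrienes and prostaglandin D2, and Alox5, Alox5ap, Ltc4s, Ptgs1 and Hpgds are known as genes of these cells.

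The 9 genes are protein-coding and lie at 9 separate places in the genome. On GRCm39, Pla2g4a is at chr1:149705369-149837053, Ptges at chr2:30779483-30820196, Ptgs1 at chr2:36120438-36142287 and Alox5ap at chr5:149196003-149227762. Hpgds is at chr6:65094001-65121983, Alox5 at chr6:116387032-116438139, Lta4h at chr10:93289210-93320749, Ltc4s at chr11:50127288-50129443 and Ltb4r2 at chr14:55998843-56002595. A lncRNA of the opposite strand, Gm26542, shares 268 bases (25.8%) of the exons of Ltc4s and had 0.911 to 3.02 CPM. The libraries were stranded, but the strand counted is not given, so that reads of this stretch cannot be assigned for certain. The overlaps with other genes cover at most 10.9% of the exonic bases of any other member.

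The promoters of the members were searched for motifs of 2 factors that bear on these libraries, the deleted glucocorticoid receptor and the tuft cell factor Pou2f3. RefSeq (GRCm38.p6) gave 8 promoters of 300 bases for 7 of the members, with none listed for Alox5ap and Ltb4r2. Both strands were searched for the octamer ATGCAAAT, which POU factors bind, and for AGAACA, the core of the glucocorticoid receptor site. Among the 8, the octamer was found in 1, the promoter of Hpgds, 174 bases before the start (chr6:65144886-65144915, minus strand), against 1.74% of all 32851 promoters and 0 of the 15 promoters listed for tuft cell markers. The core was found in 3 of the 8, against 19.0% of all promoters and 1 of the 15 of tuft markers, at chr1:149922643-149922672 (minus) for Pla2g4a, chr2:30903471-30903500 (minus) for Ptges and chr2:36230210-36230239 (plus) for Ptgs1. The full site, which is this core followed by any 3 bases and TGTTCT, was in 0 of the 8 and in 0.00913% of all promoters. These matches are shown with their surroundings, 5′ to 3′ on the strand of the gene, with the matched letters in capitals. In Ptgs1 the core lies on the opposite strand and reads TGTTCT. A match describes the letters only and is no evidence of binding.
Hpgds: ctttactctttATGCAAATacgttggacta
Pla2g4a: ctcttaaaaaacAGAACActgttttgaaca
Ptges: gaggctttcaaaAGAACAatggtcctgagc
Ptgs1: tcttccaccattTGTTCTgcctacaagcct

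Alox5, which catalyses the entry step of leukotriene synthesis, had 6.98, 12.4 and 26.6 CPM in the 3 WT Paneth libraries and 0.310, 0.348 and 0.260 CPM in the WT non-Paneth libraries. It had 61.3, 92.2 and 25.7 CPM in GRKO Paneth cells and 29.3, 41.9 and 8.47 CPM in GRKO non-Paneth cells. WT non-Paneth cells stood far below the other 3 groups, with 13 reads in all. The genotypes overlapped in Paneth cells, because GRKO replicate 3 lay just below WT replicate 3. In bulk samples, fewer cells of a type and less RNA per cell cannot be told apart, which holds for every level given here.

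Alox5ap, the partner of Alox5, followed the same order, with 13.6, 20.3 and 28 CPM in WT Paneth and 65.0, 74.3 and 22.8 CPM in GRKO Paneth cells. Non-Paneth libraries held 0.465, 1.18 and 0.39 CPM in WT and 23.7, 35.7 and 7.90 CPM in GRKO. Again the genotypes did not overlap in non-Paneth cells and overlapped in Paneth cells.

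Ltc4s, which commits leukotriene A4 to the cysteinyl leukotrienes, differed less between the groups. It had 6.04, 5.84 and 8.81 CPM in WT Paneth and 17.0, 23.4 and 7.29 CPM in GRKO Paneth cells. In non-Paneth cells it had 2.33, 2.92 and 1.30 CPM in WT and 5.91, 9.18 and 3.06 CPM in GRKO. The genotypes did not overlap in non-Paneth cells, where GRKO replicate 3 lay just above the highest WT library, and they overlapped in Paneth cells.

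Lta4h, which diverts leukotriene A4 to leukotriene B4, showed the opposite distribution. It had 104, 85.5 and 104 CPM in WT Paneth and 81.5, 108 and 99.4 CPM in GRKO Paneth cells, against 312, 301 and 314 CPM in WT non-Paneth and 313, 308 and 322 CPM in GRKO non-Paneth cells. All non-Paneth libraries lay above all Paneth libraries, and the genotypes overlapped in both fractions. With TMM scaling, which adjusts for the large share of reads that a few Paneth genes take, the non-Paneth genotypes lay apart, at 251 to 258 in WT and 205 to 218 in GRKO.

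Ltb4r2, the receptor among the 9 genes, was also a gene of the non-Paneth fraction. WT non-Paneth libraries held 11.9, 13.2 and 14.6 CPM and GRKO non-Paneth libraries 5.17, 2.64 and 3.82 CPM. Paneth libraries held 0.157, 0.243 and 0.0899 CPM in WT, which are 2, 3 and 1 reads, and 0.559, 0.716 and 1.26 CPM in GRKO. The genotypes did not overlap in either fraction and stood in opposite order in them.

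Ptgs1, the constitutive cyclooxygenase, had 3.84, 5.52 and 8.72 CPM in WT Paneth and 15.9, 29.8 and 6.10 CPM in GRKO Paneth cells. In non-Paneth cells it had 0.233, 0.556 and 0.455 CPM in WT and 6.73, 12.1 and 2.04 CPM in GRKO. Hpgds, the haematopoietic prostaglandin D synthase, had 4.94, 6.00 and 9.17 CPM in WT Paneth and 13.5, 18.9 and 12.3 CPM in GRKO Paneth cells. Its non-Paneth libraries held 0.0776, 0.417 and 0.130 CPM in WT, which are 1, 6 and 2 reads, and 7.95, 10.2 and 4.01 CPM in GRKO. Hpgds separated the genotypes in both fractions, and Ptgs1 did so in non-Paneth cells, where WT was the lower.

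Ptges, the inducible prostaglandin E synthase, was low in every library. It had 0.392, 0.406 and 0.719 CPM in WT Paneth and 1.20, 1.29 and 1.04 CPM in GRKO Paneth cells, from 18 and 47 reads. WT non-Paneth libraries held 0.465, 0.0696 and 0.130 CPM from 9 reads, and GRKO non-Paneth libraries 2 reads in all, both in replicate 2. It passed the filter on low counts through GRKO Paneth cells alone, so that its differences from that group were part of what let it be fitted.

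Pla2g4a, which supplies arachidonic acid to both branches, was present in all groups at similar CPM. WT Paneth libraries held 32.7, 40.6 and 54.4 CPM and GRKO Paneth libraries 51.1, 55.2 and 37.8 CPM, against 31.5, 27.5 and 33.4 CPM in WT non-Paneth and 53.1, 70.3 and 51.6 CPM in GRKO non-Paneth cells. The fractions overlapped in both genotypes and the genotypes did not overlap in non-Paneth cells. Scaling decides how its fractions compare. With TMM scaling the means were 57.7 ± 16.4 (SD, n = 3) in WT Paneth against 25.4 ± 2.25 in WT non-Paneth cells, and 64.4 ± 14.9 in GRKO Paneth against 39.4 ± 6.54 in GRKO non-Paneth cells.

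**Figure D1:**
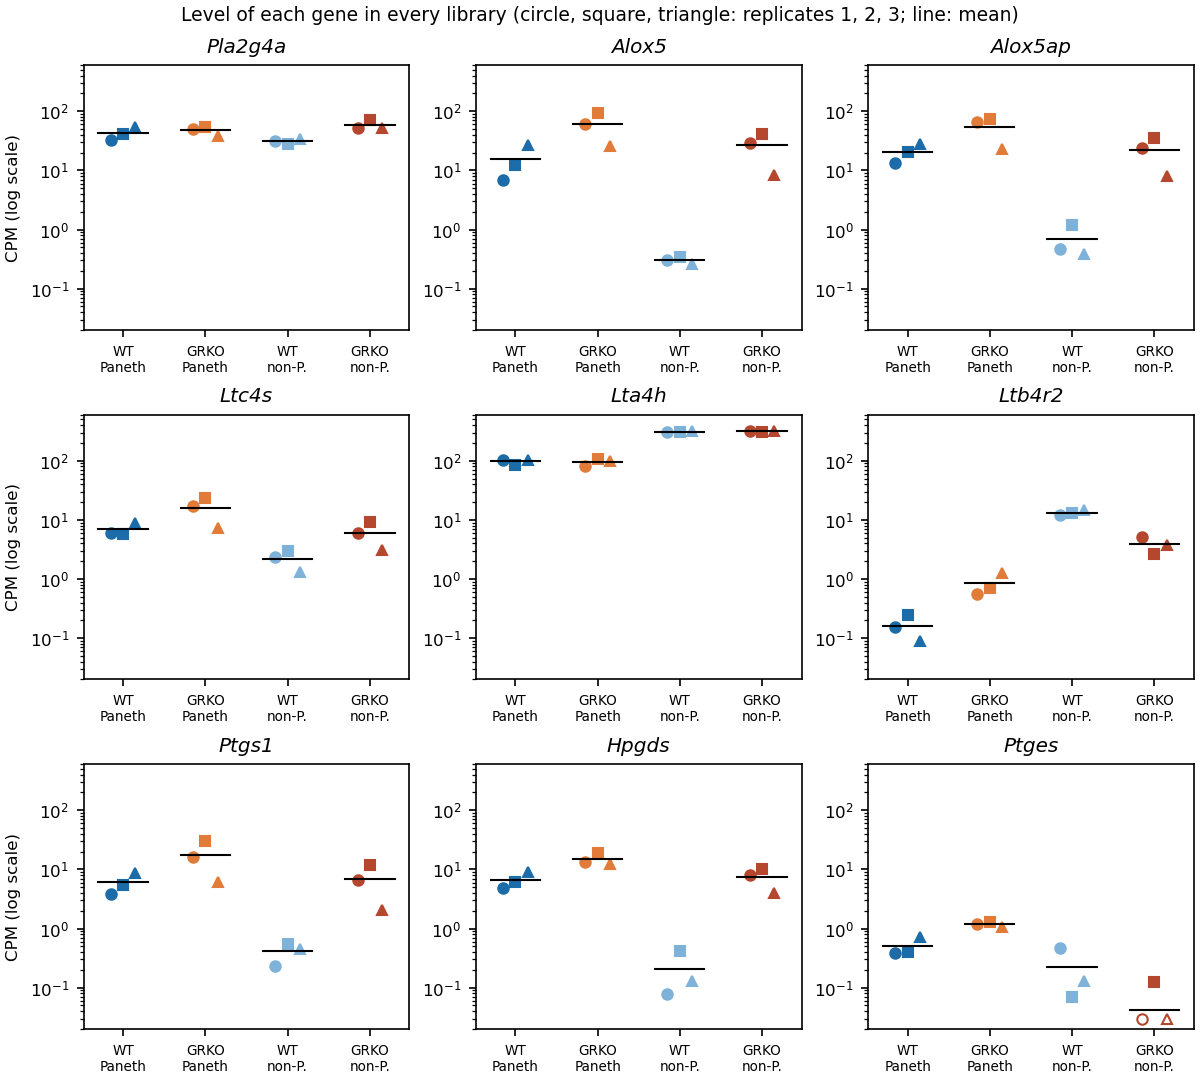
Level of each of the 9 genes in CPM on a log axis in the 12 libraries, with replicates 1, 2 and 3 as circle, square and triangle and a line at the mean of each group. Open symbols on the axis of Ptges mark the 2 GRKO non-Paneth libraries with no reads, and Alox5, Alox5ap, Ptgs1 and Hpgds share the drop in WT non-Paneth cells.

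By CPM, replicate 2 held the highest and replicate 3 the lowest level of Alox5, Alox5ap, Ltc4s, Ptgs1, Hpgds and Pla2g4a in both GRKO fractions. Lta4h and Ltb4r2 did not follow this order. With TMM scaling, replicate 1 was the highest of the GRKO Paneth libraries for Alox5ap and Pla2g4a, and replicate 3 was still the lowest for all 6 genes. Nr3c1 was highest in replicate 3 in both GRKO fractions, with 12.1 CPM in Paneth and 36.2 CPM in non-Paneth cells. With 3 libraries a group, the relation between the 2 orders was not tested.

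Per exonic length, which allows genes to be compared with each other within a group, Lta4h was the most abundant member in 3 of the 4 groups. The length counts every annotated exon of a gene, 10972 bases for Lta4h and 1037 for Ltc4s, so that the order depends on the annotation. The scale is TPM-like: counts per exonic base, scaled to the same total in every library. It is not used to compare groups. The level of Lta4h was 9.20 ± 1.20 (SD, n = 3) in WT Paneth, 98.5 ± 4.81 in WT non-Paneth and 117 ± 3.02 in GRKO non-Paneth cells. Ltc4s led in GRKO Paneth cells with 16.7 ± 9.0, followed by Alox5 with 15.8 ± 9.39, Alox5ap with 15.1 ± 7.77 and Lta4h with 9.66 ± 2.14, and each of these overlapped the next. The order in WT Paneth cells was Lta4h, Ltc4s, Pla2g4a, Alox5ap, Alox5, Ptgs1 and Hpgds, each overlapping the next, and Ptges and Ltb4r2 lay apart below them. In WT non-Paneth cells Lta4h lay apart above Pla2g4a (14.4 ± 1.74) and Ltb4r2 (12.4 ± 1.65), which overlapped, and Ltc4s (7.32 ± 2.62) lay apart above the other 5, which had 0.0918 to 0.612. GRKO non-Paneth cells put Lta4h apart above Pla2g4a, Alox5, Ltc4s and Alox5ap, which had 31.7 to 23.7 and overlapped in turn, as did the genes after them down to Hpgds, with Ptges apart at the end.

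The comparison of fractions asks which of the genes mark the sorted Paneth fraction in wild-type mice. On TMM-scaled counts, 7 of the 9 were higher in WT Paneth than in WT non-Paneth cells and 2 were lower. All 9 were called, that is, past a false discovery rate (FDR) of 5% by edgeR's quasi-likelihood test. Over all 13057 genes tested, 50.7% were called, 24.0% higher and 26.7% lower. The log2 fold change was 6.31 ± 1.14 (SE) for Alox5, 5.61 ± 0.899 for Alox5ap and 5.63 ± 0.527 for Hpgds. Ptgs1 stood at 4.51 ± 0.965, Ltc4s at 2.36 ± 0.525, Ptges at 1.88 ± 0.719 and Pla2g4a at 1.18 ± 0.214, while Ltb4r2 stood at -5.57 ± 0.433 and Lta4h at -0.96 ± 0.0995. The median was 2.36 over the members and 0.01 over all genes. Ratios of summed reads, whose exact 95% intervals cover counting error only, were 31.3 (16.2 to 69.2) for Hpgds and 0.0124 (0.00455 to 0.0272) for Ltb4r2. The call of Ptges was lost in 8 of the 14 alternatives in which it was tested, and the other 8 genes kept theirs in every alternative run.

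In GRKO mice the same 7 genes were higher and the same 2 lower in the Paneth fraction. All 9 passed 5% FDR, where 39.2% of all genes were called, 18.0% higher and 21.2% lower. The largest log2 fold change was that of Ptges, 5.39 ± 0.782, which rests on 47 reads against 2, a ratio of 27.3 with an exact 95% interval of 7.14 to 232. Ptges passed the filter on low counts through GRKO Paneth cells alone, the higher group here, so that its call cannot count as support. The genes known from tuft cells lay close together, Alox5 at 2.15 ± 0.684, Alox5ap at 2.26 ± 0.623, Ltc4s at 2.38 ± 0.467, Ptgs1 at 2.28 ± 0.670 and Hpgds at 1.98 ± 0.331. Pla2g4a stood at 0.71 ± 0.209, Lta4h at -0.74 ± 0.0990 and Ltb4r2 at -1.22 ± 0.342. The median was 2.15 over the members and -0.08 over all genes. Leaving out replicate 1 of GRKO Paneth cells brought the count to 5, leaving out their replicate 2 to 4, and leaving out replicate 1 of GRKO non-Paneth cells to 5. Alox5, Alox5ap and Ptgs1 were lost each time.

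Deletion of the receptor was compared next within Paneth cells. Here 1 of the 9 genes, Ltb4r2, passed 5% FDR, against 3.22% of all genes, with a log2 fold change of 2.29 ± 0.550 in GRKO over WT. It rests on 34 reads against 6, a ratio of 5.14 (exact 95% interval 2.13 to 15), and the call was lost without any of WT Paneth replicates 1, 2 and 3 or GRKO Paneth replicates 2 and 3. The values of the other genes were 1.95 ± 0.698 for Alox5, 1.38 ± 0.616 for Alox5ap, 1.20 ± 0.461 for Ltc4s, 1.49 ± 0.676 for Ptgs1, 1.13 ± 0.333 for Hpgds and 1.21 ± 0.585 for Ptges. Pla2g4a (0.16 ± 0.211) and Lta4h (-0.04 ± 0.0992) lay within 1 SE of 0. The median over the members was 1.21, against 0.03 over all genes. DESeq2 called 3 of the genes, adding Hpgds and Ltc4s, and edgeR without a filter on low counts called 6, adding Alox5, Alox5ap and Ptgs1 as well. Of 24077 genes these settings called 1465 and 1780.

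Within non-Paneth cells, 7 of the 9 genes passed 5% FDR between GRKO and WT, 5 of them higher and 2 lower, where 37.3% of all genes were called, 17.5% higher and 19.8% lower. Alox5 was higher by a log2 fold change of 6.11 ± 1.12, Hpgds by 4.78 ± 0.532, Alox5ap by 4.73 ± 0.897, Ptgs1 by 3.72 ± 0.960 and Pla2g4a by 0.63 ± 0.211. Ltb4r2 stood at -2.06 ± 0.281 and Lta4h at -0.26 ± 0.0981. Ltc4s (1.18 ± 0.519) and Ptges (-2.30 ± 1.0) did not pass, and Ptges rests on 2 reads against 9. The median over the members was 1.18, against 0.02 over all genes. For Hpgds the reads were 343 against 9, a ratio of 35.1 (exact 95% interval 18.3 to 77.4). With both WT libraries numbered 2 left out, a choice made after the data were seen, Lta4h, Pla2g4a and Ptgs1 lost their calls and 4 of the 9 genes remained. Of single libraries, Ptgs1 lost its call without WT replicate 1 or 3, Lta4h without GRKO replicate 1 or 2, and Pla2g4a without any of these or WT replicate 2.

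The difference between the 2 genotype effects, Paneth minus non-Paneth, was past 5% FDR for 3 of the 9 genes, where 18.7% of all genes were called. It was 4.35 ± 0.602 on the log2 scale for Ltb4r2, -3.64 ± 0.666 for Hpgds and 3.51 ± 1.17 for Ptges, which was called without WT or GRKO non-Paneth replicate 2 but lost without any other single library. Ptges passed the filter on low counts through GRKO Paneth cells alone, so that its call cannot count as support. For Alox5 the difference was -4.16 ± 1.43, for Alox5ap -3.35 ± 1.13 and for Ptgs1 -2.23 ± 1.22, none of which passed. Ltc4s (0.02 ± 0.832), Lta4h (0.23) and Pla2g4a (-0.47) were not called either. These 5 comparisons share libraries, so that they are not independent of each other.

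**Figure D2:**
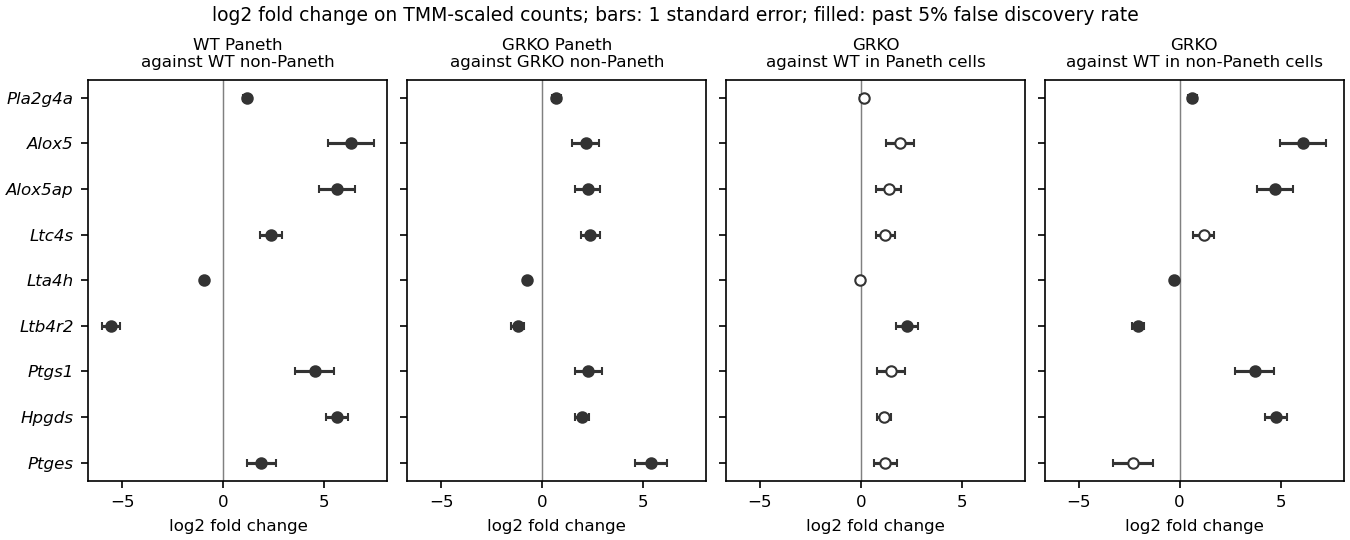
log2 fold changes of the 9 genes on TMM-scaled counts in 4 comparisons, with bars of 1 SE, filled where the adjusted p of edgeR was under 5% FDR. The fold changes of Alox5, Alox5ap, Ptgs1 and Hpgds lie between 3.72 and 6.31 where WT non-Paneth cells are the reference, and between 1.13 and 2.28 in the other comparisons.

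Markers of the other cells that the gates could hold were summed in each library. The 15 tuft cell markers, among them the calcium-gated channel Trpm5, the kinase Dclk1 and the transcription factor Pou2f3, came to 217, 310 and 507 CPM in WT Paneth and 802, 1281 and 448 CPM in GRKO Paneth cells. They came to 10.5, 20.2 and 13.6 CPM in WT non-Paneth and 370, 552 and 134 CPM in GRKO non-Paneth cells. Gfi1b and Il25 had no reads in WT non-Paneth cells, and all 15 were detected in the other groups. By group mean these sums ran in the order of Alox5, highest in GRKO Paneth and lowest in WT non-Paneth cells. Within WT Paneth cells and within both GRKO fractions, the replicates stood in the same order for the sums as for Alox5, Alox5ap, Ptgs1 and Hpgds.

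Of the 14 tuft markers that passed the filter, 14 were higher in WT Paneth than in WT non-Paneth cells by edgeR's test at 5% FDR (median log2 fold change 5.85). The count was also 14 in GRKO Paneth against GRKO non-Paneth cells (median 2.27). Of all genes, 24.0% and 18.0% were called higher in these 2 comparisons. By CPM, 14 of the 14 lay apart between the WT fractions, but 0 of the 14 between the GRKO fractions. Between genotypes, 12 of 14 were higher in GRKO in non-Paneth cells (median 4.82) and 0 of 14 passed in Paneth cells (median 1.33). In that last comparison 7 of 14 had an unadjusted p under 0.05, DESeq2 called 1 of 15, and edgeR without a filter on low counts called 12 of 15. Between the GRKO fractions, 8 of 14 tuft markers were called without GRKO Paneth replicate 2 and 6 of 14 with scaling by library totals only. The interaction was past the threshold for 7 of 14, all negative (median -3.59), a count that rests on single libraries. It was 1 without WT Paneth replicate 3 or without WT non-Paneth replicate 1 or 3, and 2 without WT non-Paneth replicate 2 or GRKO non-Paneth replicate 1 or 2. It was 4 without WT Paneth replicate 2 or GRKO Paneth replicate 1, 10 of 14 by library totals only, 10 of 15 by DESeq2, 12 of 15 without a filter and 0 with both WT libraries numbered 2 left out. The part of the tuft markers in the differences of the 9 genes was not tested. Transcripts of the sort antigens moved as well. Cd24a had 139 to 145 CPM in WT non-Paneth against 361 to 606 CPM in GRKO non-Paneth cells, and Kit had 9.30 to 14.0 against 22.8 to 62.5 CPM. In Paneth cells Cd24a had 861 to 1260 CPM in WT against 1497 to 1984 CPM in GRKO, and Kit had 84.3 to 142 against 145 to 221 CPM.

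Mast cells and other leukocytes are known sources of the same enzymes. The 9 mast cell markers summed to between 0.233 and 0.959 CPM in all 12 libraries, and the carboxypeptidase gene Cpa3 had no reads in any library. None of the 9 passed the filter, and 5 of the 9 had no reads in each group. The 15 leukocyte markers summed to 9.17 to 22.4 CPM in WT Paneth, 7.99 to 10.6 in WT non-Paneth, 16.3 to 86.9 in GRKO Paneth and 12.9 to 39 CPM in GRKO non-Paneth cells. Siglecf led this sum outside WT non-Paneth cells, with 3.37 to 61.5 CPM, and Ptprc, which encodes the CD45 excluded by the Paneth gate, reached 23.3 CPM in GRKO Paneth replicate 2. Both were highest in replicate 2 and lowest in replicate 3 of the GRKO fractions, as was the tuft marker sum. In WT Paneth cells both rose from replicate 1 to replicate 3, again like the tuft marker sum. Siglecf was also among the genes closest in pattern to Alox5, as given below. Bulk libraries do not show which cells the reads of Siglecf and Ptprc came from. Other genes of the list ran the other way. The integrin gene Itgam had 0.559 to 1.88 CPM in the Paneth libraries and 4.27 to 5.92 CPM in the non-Paneth libraries. Cd68, a marker of macrophages, had 1.81 to 2.17 CPM in WT non-Paneth and 0.476 to 1.15 CPM in GRKO non-Paneth cells. In GRKO Paneth cells 8 of the 15 leukocyte markers had no reads, among them Cd3e, Csf1r and Itgax. Their part in the differences was not tested.

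**Figure D3:**
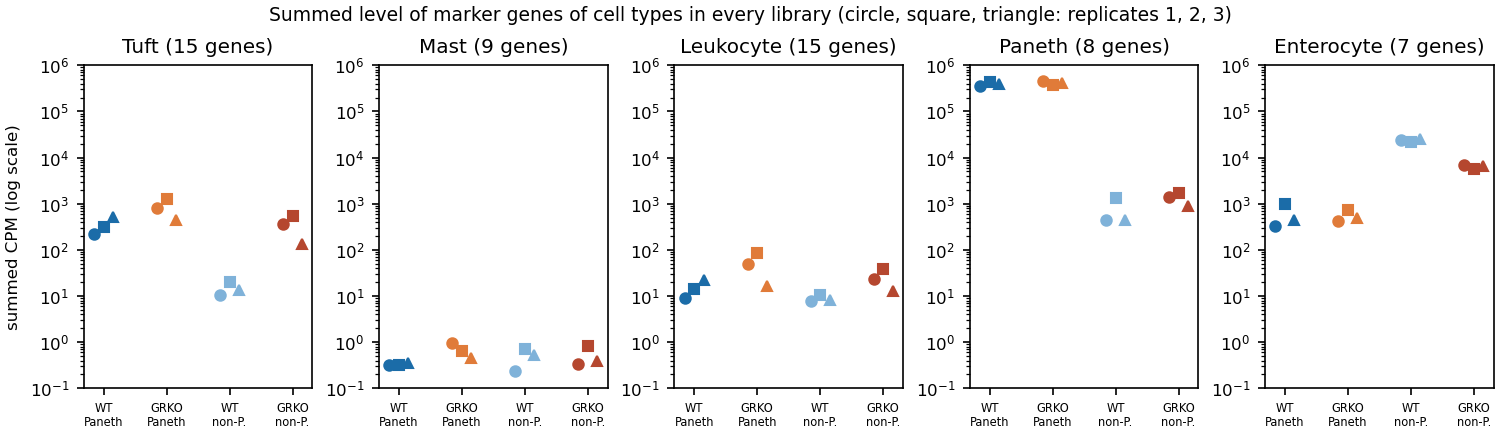
Summed CPM of marker lists on a log axis in the 12 libraries, with replicates 1, 2 and 3 as circle, square and triangle. Tuft markers lie between 10.5 and 20.2 CPM in WT non-Paneth cells and between 134 and 1281 CPM elsewhere, while mast cell markers stay under 1 CPM in every library.

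As a further description, chosen after the data were seen, the CPM of each gene was divided by the summed tuft marker CPM of its library. Alox5ap came to 5.53 to 6.55% in WT Paneth, 5.10 to 8.10% in GRKO Paneth, 5.91 to 6.46% in GRKO non-Paneth and 2.87 to 5.86% in WT non-Paneth cells. Alox5 came to 3.22, 4.01 and 5.25% in WT Paneth cells, against 7.64, 7.19 and 5.74% in GRKO Paneth cells. GRKO non-Paneth cells had 7.93, 7.58 and 6.34%, and the GRKO libraries of both fractions did not overlap with the WT libraries. Ptgs1 lay between 1.36 and 3.35% and Hpgds between 0.741 and 3.00% over all libraries. Ltc4s lay between 1.60 and 2.79% in 3 groups and at 22.2, 14.5 and 9.57% in WT non-Paneth cells. Lta4h ranged from 8.46 to 2977% and did not scale with the tuft markers. In WT non-Paneth cells the tuft sum was only 10.5 to 20.2 CPM and was led by Vav1, against Trpm5 or Dclk1 in the other groups. Alox5 had 13 reads in all there. The ratios of WT non-Paneth cells are therefore not fully comparable with those of the other groups.

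**Figure D4:**
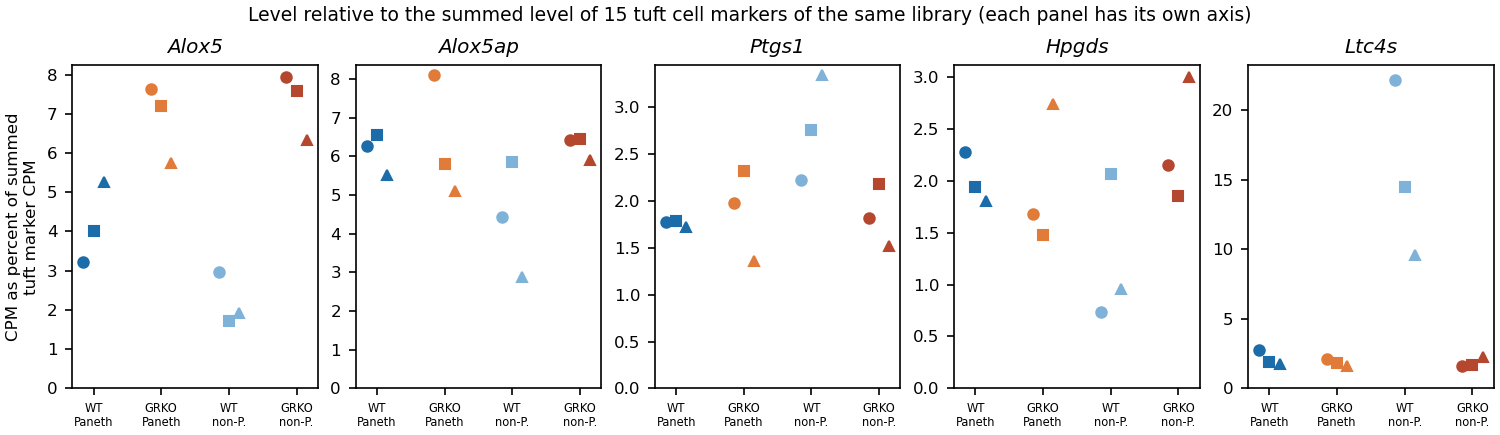
CPM of 5 genes as a percentage of the summed CPM of 15 tuft markers in the same library, each panel with its own axis from 0. Alox5 lies higher in both GRKO fractions (5.74 to 7.93%) than in WT (1.72 to 5.25%), and Ltc4s stands apart in WT non-Paneth cells. The WT non-Paneth ratios rest on tuft sums of 10.5 to 20.2 CPM, led by another gene than in the other groups.

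Likeness of pattern was measured as Pearson's r of log2 TMM-scaled CPM over the 12 libraries against 13057 genes. It is a description, because the libraries fall into 4 groups and genes of 1 cell type share them. Among the 3 genes closest to Alox5 were Strip2 (0.995) and Siglecf (0.995), and closest to Alox5ap were Irag2 (0.999), Pygl (0.998) and Mcub (0.997). Ptgs1 was nearest to Vav1 (0.996), Ffar3 and Mcub, and Hpgds to Avil (0.996), Irag2 (0.996) and Bmx (0.995), where Vav1, Avil and Bmx are on the tuft marker list. Ltc4s was nearest to Atp2a3 (0.982), Krt18 and Pea15a. Lta4h was nearest to Ces2b (0.994), Cyp2c65 and Lrat, and Ltb4r2 to Gm11695 (0.981), Ehd1 and Prkce. Ptges was nearest to Peg13 (0.985), Notum and Tm4sf4, and Pla2g4a to Pcdhb22 (0.981), P4ha2 and Ankrd63. Among the members themselves, the 6 pairs of Alox5, Alox5ap, Ptgs1 and Hpgds had r from 0.969 to 0.991, and Lta4h with Ltb4r2 had 0.883.

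The rest of the pathway was taken from a list of 65 other eicosanoid genes, of which 33 passed the filter and were tested. In WT mice 8 of the 33 rose in Paneth over non-Paneth cells and 15 fell, where 24.0% of all genes were called higher and 26.7% lower. The secreted phospholipases A2 Pla2g2a and Pla2g2f rose most, by 7.55 ± 0.618 on the log2 scale (edgeR adjusted p = 5.9e-06) and 6.22 ± 0.518 (adjusted p = 5.38e-06). Pla2g2a had 398 to 456 CPM in WT Paneth and 1.16 to 6.68 CPM in WT non-Paneth cells. The transporter Abcc4, which exports prostaglandins among other anions, rose by 2.91 ± 0.252. Ggt1 and Dpep1, the surface enzymes that trim leukotriene C4 to D4 and E4, changed by -5.37 ± 0.910 and -5.01 ± 1.07, and the prostaglandin transporter Slco2a1 by -3.88 ± 0.325. Ggt1 had 1.88 and 2.34 CPM in WT Paneth replicates 1 and 3 but 18.8 CPM in replicate 2, in which the summed enterocyte markers were also highest, at 968 CPM against 336 and 434.

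In GRKO mice 10 of the 33 rose and 13 fell between the same fractions, where 18.0% of all genes were called higher and 21.2% lower. Pla2g2a rose by 7.24 ± 0.601, Pla2g2f by 5.5 ± 0.482 and Pla2g12a by 1.72 ± 0.116. The prostaglandin D2 receptor Ptgdr, at 0 in all GRKO Paneth libraries and 0.189 to 0.955 CPM in GRKO non-Paneth libraries, was called lower (adjusted p = 0.0391). Ggt1 changed by -4.41 ± 0.915 and Dpep1 by -3.63 ± 1.03. Ptgdr kept its call only without GRKO non-Paneth replicate 2 among the 6 libraries left out, and Dpep1 only without GRKO Paneth replicate 2.

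Between genotypes in Paneth cells, 3.22% of all genes were called. Of the 33 genes 2 changed there by edgeR's test, both lower in GRKO, the prostamide synthase Prxl2b (-0.83 ± 0.196, adjusted p = 0.0448) and the microsomal glutathione transferase Mgst1 (-0.76 ± 0.160, adjusted p = 0.0436). Neither was called without WT Paneth replicate 1, without WT Paneth replicate 2, or without GRKO Paneth replicate 2 or 3, and 5 of the 33 were called without GRKO Paneth replicate 1. In non-Paneth cells 7 of the 33 rose and 13 fell, where 17.5% of all genes were called higher and 19.8% lower. Abcc4 rose by 1.28 ± 0.250, Pla2g2f by 1.38 ± 0.485 (adjusted p = 0.0498) and the phospholipase Pla2g5 by 0.88 ± 0.286. Ltb4r1, the high-affinity leukotriene B4 receptor, changed by -2.0 ± 0.440 (adjusted p = 0.00264), beside its paralogue Ltb4r2 at -2.06 in the same cells. Slco2a1 changed by -1.79 ± 0.274 and Ggt1 by -2.27 ± 0.765 (adjusted p = 0.0464). The call of Ggt1 was lost without any of the 6 libraries, that of Pla2g2f without any but WT replicate 2, and that of Pla2g5 without WT replicate 1 or 3 or GRKO replicate 1 or 2. The summed enterocyte markers stood at 21550 to 25126 CPM in WT and 5581 to 7027 CPM in GRKO non-Paneth cells, and their part in these changes was not tested.

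Some genes were to be named whatever their values. The inducible cyclooxygenase Ptgs2, which glucocorticoids are known to repress, reached at most 0.959 CPM, and annexin A1 (Anxa1), which they are known to induce, at most 0.314 CPM, and neither passed the filter. Ptgs2 had 26 reads in GRKO against 5 in WT Paneth cells, and 7 against 0 in non-Paneth cells. Its genotypes overlapped in both fractions. Anxa1 had 8 reads in each Paneth group, and 11 in GRKO against 3 in WT non-Paneth cells. These differences were not tested. Cysltr2, a receptor of cysteinyl leukotrienes, had no reads in any library, with a floor of 3 reads per group equal to 0.0648 to 0.0828 CPM. The prostaglandin-degrading enzyme Hpgd had 122, 115 and 114 CPM in WT non-Paneth and 42.6, 47.6 and 57.1 CPM in GRKO non-Paneth cells, a change of -1.54 ± 0.185 (adjusted p = 3.71e-05). In Paneth cells its genotype difference was 0.04 ± 0.182. The prostaglandin E receptor Ptger4 was lower in WT Paneth than in WT non-Paneth cells (-0.89 ± 0.185, adjusted p = 0.00091), and its genotype differences were 0.31 ± 0.190 in Paneth and -0.19 ± 0.175 in non-Paneth cells, neither called.

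**Figure D5:**
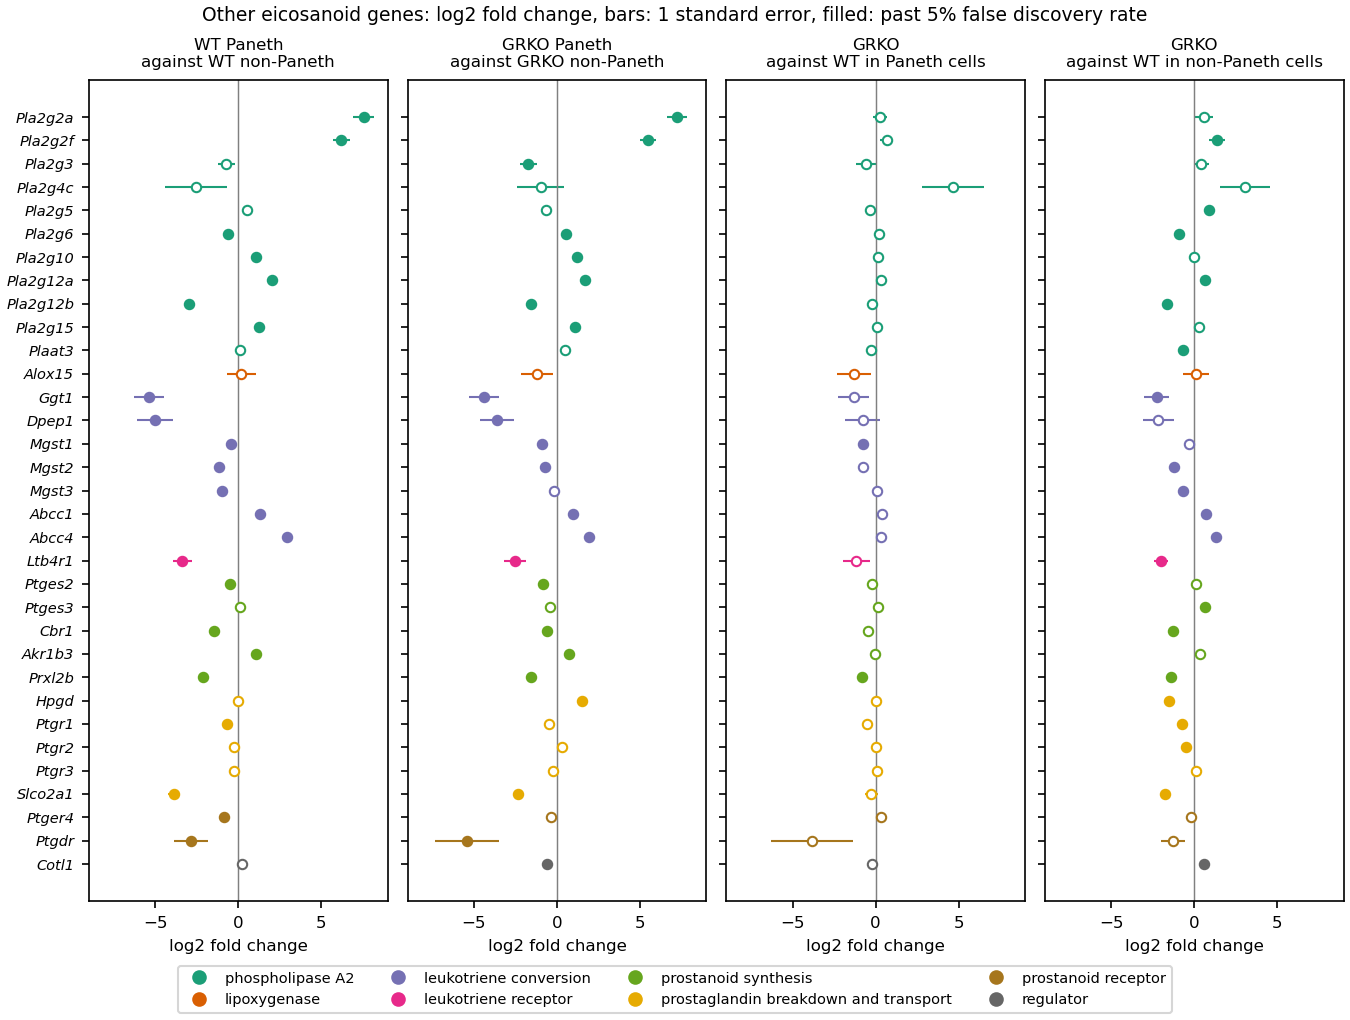
log2 fold changes of 33 other eicosanoid genes in 4 comparisons with bars of 1 SE, coloured by role and filled where the adjusted p of edgeR was under 5% FDR. The phospholipases Pla2g2a and Pla2g2f lie at the right between fractions (5.5 to 7.55), and Ggt1 and Dpep1 at the left (-5.37 to -3.63).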

How the data were processed

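Per the labels and the study's methods, the authors made single-end TruSeq stranded libraries, trimmed reads with Trimmomatic 0.39, aligned them to mm39 with STAR 2.7.10a and counted reads per gene during alignment. The deposited values are raw counts, whole numbers without normalization. Genotypes follow the sample titles, since the genotype field contradicts them. Of 55414 rows, 54749 (98.8%) were named through GENCODE vM39. The study's methods name another GENCODE release for the mapping. Levels are CPM of all gene counts.

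The tests used edgeR 4.0.16 and R 4.3.3 (filterByExpr, TMM, robust glmQLFit, glmQLFTest, Benjamini-Hochberg over 13057 genes, 5% FDR) in 1 fit over 12 libraries with 1 mean per group. The fit was also run on simulated counts with 200 genes changed per comparison. That simulation had no pairing and fewer changed genes than were called in any comparison here. It therefore does not vouch for the tests on these data. DESeq2, which the authors used in a version not stated, was an alternative here in version 1.42.0. Other alternatives were other scalings, filters, a replicate block, 1% FDR and each library left out. The members, the lists and the rule for named genes were chosen with earlier results of these data known. By that rule all 9 members were named, the 3 most positive and 3 most negative of the other eicosanoid genes past 5% FDR whose libraries did not overlap (for the interaction, past 5% FDR only), and 6 genes whatever their values.

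Deviations from the group means correlated between same-numbered WT Paneth and non-Paneth libraries (0.349, 0.229 and 0.238), and the numbers were taken to pair them. For GRKO the values were 0.0129, 0.262 and 0.465, and the numbers were not taken as pairs there, for the interaction or across genotypes. No 2 libraries of a group agreed within sampling noise. Dpep2, which has 2 rows, was left out. Protein sequences were not used here. One of the genes nearest in pattern to Alox5 is not reported here.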

Additional observations from a re-analysis of the deposited data

Results flagged for a closer look

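Of all genes, 18.7% were past 5% FDR for edgeR's interaction term. Between the cell fractions, the genotype effect of 7 of the 33 other eicosanoid genes tested differed by this test. So did that of 3 of the 9 members, which is a description only, since these were chosen with results of the libraries known. For Ltb4r2 the effect in Paneth minus that in non-Paneth cells was 4.35 on the log2 scale, with the WT Paneth level resting on 6 reads. It was -3.64 for Hpgds and 3.51 for Ptges, and that of Ptges, which passed the filter through GRKO Paneth cells alone and had 2 reads in all in GRKO non-Paneth cells, kept its call in 6 of 20 alternatives. Of the other genes, Hpgd differed by 1.58, Slco2a1 by 1.53 (lost without WT Paneth replicate 1 or 3, WT non-Paneth replicate 2 or 3 or GRKO Paneth replicate 2), Pla2g12b by 1.39, Pla2g6 by 1.15, Cbr1 by 0.82, Mgst3 by 0.75 and Cotl1, which encodes an actin-binding partner of 5-lipoxygenase, by -0.79.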

How the results depend on the processing

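Depth limits Ptges and, in Paneth cells, Ltb4r2, which rest on few reads. It also limits Hpgds, Alox5, Ptgs1 and Alox5ap in WT non-Paneth cells, with 9, 13, 18 and 29 reads. Of 748 log2 fold changes of the 9 genes under alternatives, 647 kept their side of the threshold, 73 lost a call, 26 gained a call and 2 reversed. For the other eicosanoid genes these were 2521, 128, 86 and 7 of 2742. A reversal is a change of sign with a call in either fit. Changes of sign without a call stand among the 647, as in 10 of the 21 alternatives for the Ltc4s interaction. All reversals came with scaling by library totals only, which moved the median of all genes from 0.01 to -0.68 between WT fractions, from -0.08 to -1.05 between GRKO fractions and from 0.02 to 0.31 between genotypes in non-Paneth cells. They were Plaat3 (-0.62), Ptges3 (-0.61) and Cotl1 (-0.49) between WT fractions, Pla2g4a (-0.28), Pla2g6 (-0.44), Plaat3 (-0.55), Akr1b3 (-0.26) and Ptgr2 (-0.70) between GRKO fractions, and Lta4h (0.024) between genotypes in non-Paneth cells. Between GRKO fractions, 5 members were called by library totals, against 10784 of all 13057 genes, and 4 at 1% FDR. Between genotypes in Paneth cells, DESeq2 called 3 members and 4 other genes and no filter 6 and 8, against 1465 and 1780 of 24077 genes. The counts of members and of other genes were both 0 by library totals and in a fit of only the groups compared. Both were also 0 at 1% FDR and with both WT libraries numbered 2 left out, and a minimum of 10 counts in every library left 0 members. At an unadjusted p under 0.05, 3491 of all genes differed there. Between genotypes in non-Paneth cells, 4 members were called at 1% FDR and 4 with both WT libraries numbered 2 left out, against 3610 of 13267 genes in the latter. For the interaction, DESeq2 called 5 members, no filter 6 members and 13 other genes, and 1% FDR 4 other genes. Of 24077 genes, DESeq2 called 3024 and no filter 2671 there. With each library left out, the members called ranged from 8 to 9 between WT fractions, 4 to 9 between GRKO fractions, 0 to 1 and 5 to 8 between genotypes in Paneth and non-Paneth cells, and 2 to 4 for the interaction. The other genes ranged from 19 to 23, 19 to 22, 0 to 5, 16 to 19 and 4 to 11 (4 without WT Paneth replicate 3, 11 without replicate 2). With the replicate block, 5 members were called for the interaction (Alox5, Alox5ap and Ptgs1 gained, Ptges lost, as was Slco2a1 of the other genes), and no other count of members or other eicosanoid genes moved by over 1.5 times. Between genotypes in non-Paneth cells it ended the calls of Lta4h, Pla2g4a and Ggt1 and added that of Ltc4s. Of all genes, 977 instead of 420 were called between genotypes in Paneth cells, and of the tuft markers 2 instead of 0 there and 12 instead of 7 of 14 for the interaction. Between WT fractions, where the numbers pair the libraries, the block ended no call. There 6 of 6 libraries correlated best with their own number, against 4 of 6 in GRKO, and a call lost elsewhere under the block is no sign of a weaker difference. The causes were not tested.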

Other observations

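Pla2g4c, a cytosolic phospholipase A2 gene outside the naming rule and picked after its values were seen, had a wide spread within every group. It stood at 85.4, 71.6 and 1.34 CPM in GRKO Paneth cells and 0.784, 1.70 and 4.13 CPM in WT Paneth cells. In non-Paneth cells it stood at 368, 251 and 9.87 CPM in GRKO and 4.81, 11.5 and 45.5 CPM in WT. Replicate 3 was the lowest in both GRKO fractions and the highest in both WT fractions. Pla2g4c did not pass edgeR's test at 5% FDR in any of the 5 comparisons.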
